A study of Mus musculus with 32 samples.

Results

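Cytokine receptors that lack a kinase of their own signal through JAK kinases, which phosphorylate STAT proteins, and the paired STATs then act as transcription factors in the nucleus. Suppressors of cytokine signaling, the SOCS proteins and CISH, are induced by STATs and in turn block the receptor or its kinase, so their transcripts are widely read as a record of recent signaling. In microglia the pathway serves interferons, the interleukin-6 and interleukin-10 families and the growth factors of the common beta and gamma receptor chains. Described here are 9 genes of the pathway among the 18588 in the deposited table: 5 STAT genes (Stat2, Stat3, Stat5a, Stat5b and Stat6) and 4 feedback genes (Socs1, Socs2, Socs3 and Cish). They were chosen by name as members of the pathway, and all 9 were measured in every library.

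The study sequenced RNA of microglia from female rTg4510 mice and female WT mice at 2, 4, 6 and 8 months of age. rTg4510 mice carry human tau with the P301L mutation downstream of a tetracycline-responsive element, and a second transgene in which the CaMKIIα promoter drives the transactivator tTA, so that the tau is made in forebrain neurons. WT mice were littermates with neither transgene, and their strain is given as 129/FVB F1. Each library held the CD11b-positive cells of 8 to 10 pooled forebrains, so that the libraries and not the animals are the replicates. Of 32 libraries, both numbered 3 at 4 months and both numbered 4 at 8 months were excluded by the authors after quality control, which leaves 4 libraries per group at 2 and 6 months and 3 at 4 and 8 months.

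The summed log2 signal of 7 microglia markers, with Cx3cr1 the highest, lay between 14.1 and 14.9 in all 28 libraries, above the sums of 6 border macrophage markers (10.1 to 11.2) and 8 neutrophil markers (7.49 to 10.4). Astrocyte markers, with Slc1a3 the highest, summed to 9.32 to 11.01. Of the microglia markers 1, 1, 2 and 2 of 7 were called lower in rTg4510 at 2, 4, 6 and 8 months, where 0.403%, 4.33%, 8.54% and 5.37% of all genes were. Of the neutrophil markers 7 of 8 were called lower at 6 and at 8 months and 0 of 8 at 2 and 4 months, with a median of -1.02 at 4 months. Called lower were also 2 and 3 of 5 astrocyte markers at 6 and 8 months, 2 of 5 T and B cell markers at 4 months, 1, 2 and 1 of 5 endothelial markers at 4, 6 and 8 months, and 1 of 3 neuron markers at 6 months. Called higher were 1 of 5 astrocyte markers at 6 and 8 months and 1 of 5 endothelial markers at 4, 6 and 8 months. No oligodendrocyte marker was called. The part of these cells in the results below was not tested. The mouse row of Mapt, the tau gene, was not called at any age (log2 fold change -0.49, -0.63, -0.27 and -1.01 at 2, 4, 6 and 8 months), and whether reads of the human transgene reach it is not known.

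Socs2 was the only member that differed between the genotypes by the study's thresholds (FDR under 0.05 and more than 1.5 fold), and it was up-regulated in rTg4510 microglia at all 4 ages. The other 8 members were called at no age in the main fit, which does not pair libraries. With libraries paired by replicate number, Socs3 was called at 8 months (FDR = 0.0282) and Cish at 4 months (FDR = 0.0474). In that fit Socs2 was not called at 2 months (FDR = 0.0509). SOCS2 is best known as the brake on growth hormone receptor signaling. Counted over all genes, 1.98%, 13.8%, 19.8% and 15.9% were called at 2, 4, 6 and 8 months, and 9.57% were called in the same direction at 4, 6 and 8 months.

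At 2 months the log2 signal of Socs2 was 5.32, 4.92, 4.82 and 4.09 in the WT libraries and 5.69, 5.76, 5.84 and 5.23 in the rTg4510 libraries. A single rTg4510 library lay below the highest WT library, so the groups overlapped. The difference was 0.84 ± 0.248 (SE; 1.79 fold, FDR = 0.0475), close to the threshold, and the call was lost with all 32 libraries (FDR = 0.0859) with the libraries of 2 months alone (FDR = 0.242), and in 20 of the 28 fits that left out a library (log2 difference 0.61 to 0.89). At 4 months the WT libraries read 4.44, 5.09 and 4.43 and the rTg4510 libraries 6.68, 6.31 and 6.12. At 6 months the WT libraries read 4.81, 4.96, 4.16 and 5.11 and the rTg4510 libraries 6.80, 6.51, 6.54 and 6.75. At 8 months the WT libraries read 5.24, 5.32 and 4.57 and the rTg4510 libraries 6.57, 6.29 and 6.61. Every rTg4510 library was thus above every WT library of its age from 4 months on, as were 19.1%, 18.2% and 21.2% of all genes at 4, 6 and 8 months. The change was 3.28 fold at 4 months (log2 1.72 ± 0.286, FDR = 0.000106), 3.71 fold at 6 months (log2 1.89 ± 0.248, FDR = 3.18e-06) and 2.73 fold at 8 months (log2 1.45 ± 0.286, FDR = 0.000548).

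**Figure D1:**
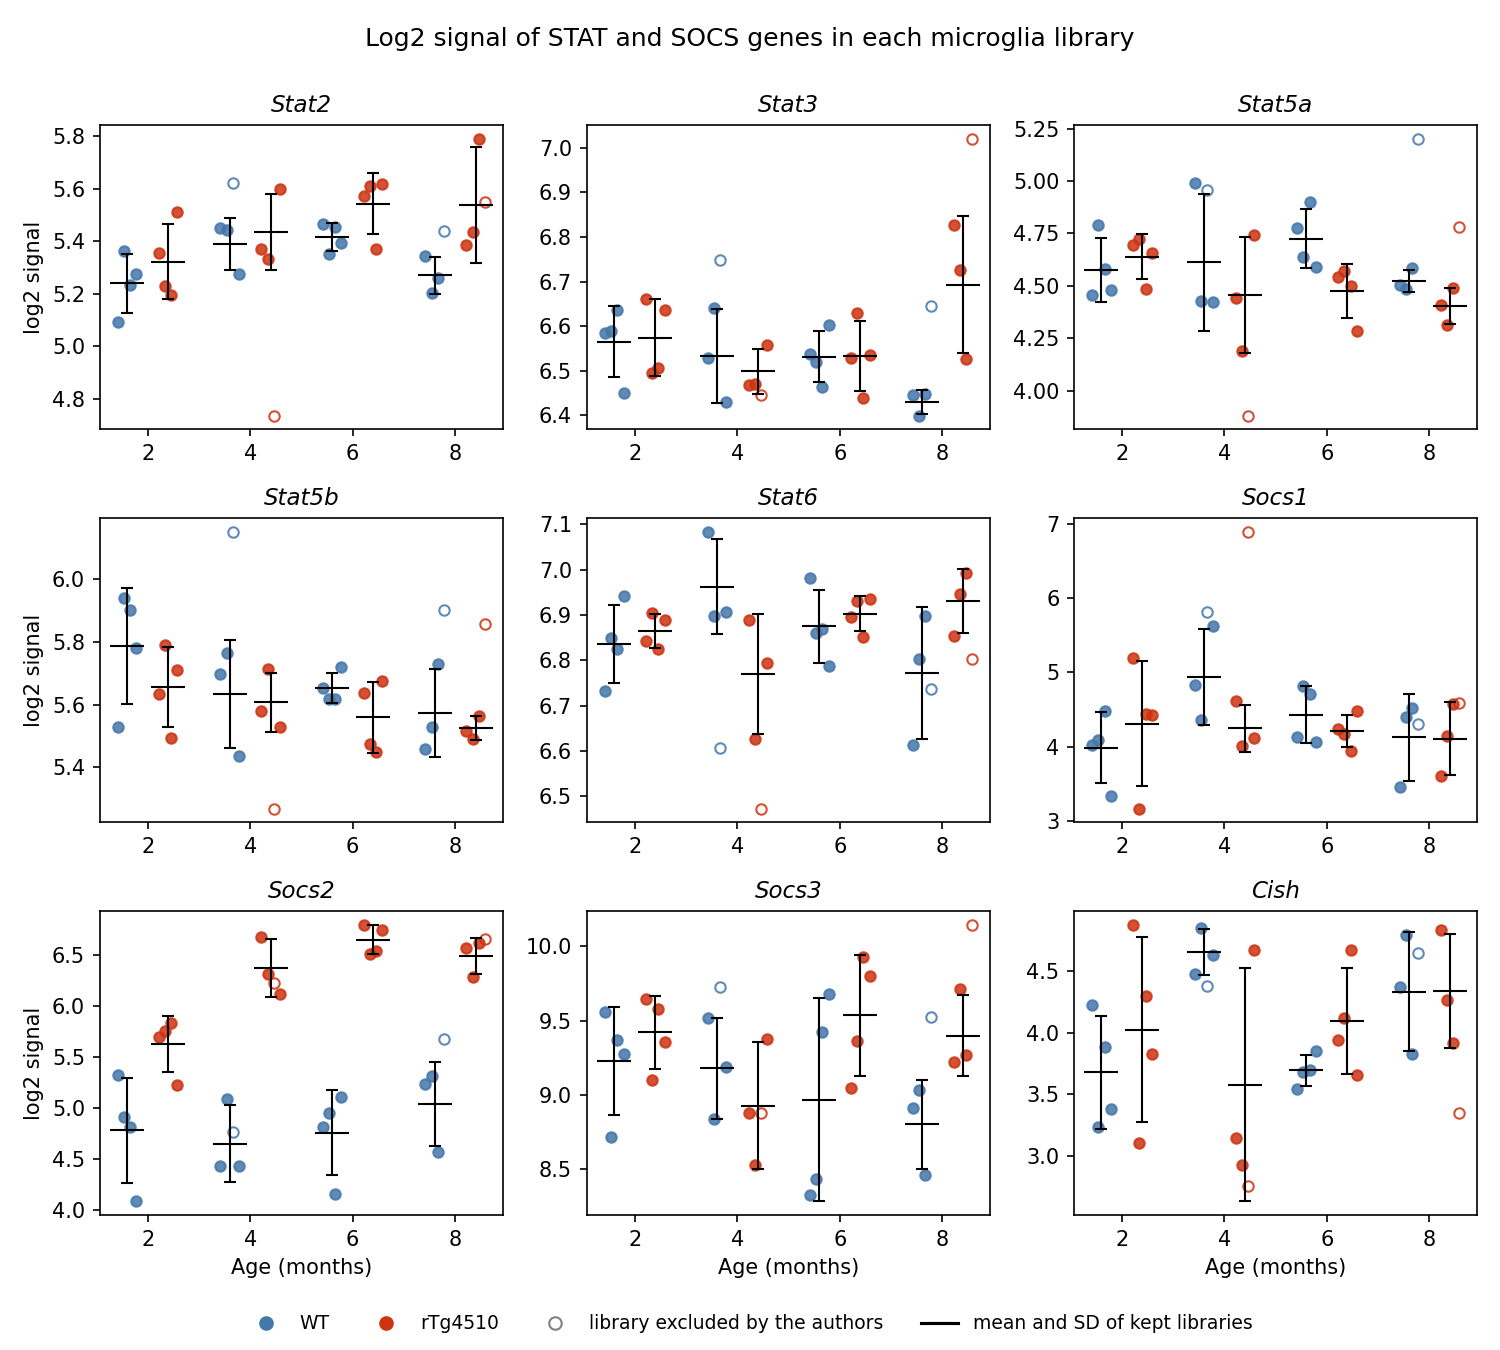
Log2 signal (vertical axis, a separate scale in each panel) of the 9 genes in each library by age in months, with WT in blue, rTg4510 in red, libraries excluded by the authors as open circles, and the mean and SD of the kept libraries in black. Socs2 is the only panel in which red lies above blue at 4, 6 and 8 months, with rTg4510 means of 6.37, 6.65 and 6.49 against WT means of 4.65, 4.76 and 5.04.

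Within WT the group means of Socs2 lay between 4.65 at 4 months and 5.04 at 8 months. None of the 3 contrasts of a later age with 2 months was called in WT for Socs2 or any other member, against 0.0484%, 0.382% and 1.27% of all genes at 4, 6 and 8 months. Within rTg4510 the mean of Socs2 rose from 5.63 ± 0.273 (SD, n = 4) at 2 months to 6.65 ± 0.143 (SD, n = 4) at 6 months, a log2 difference of 1.02 ± 0.248 (SE, FDR = 0.00389), and to 6.49 ± 0.177 (SD, n = 3) at 8 months, a difference of 0.86 ± 0.268 (SE, FDR = 0.0246). The call at 8 months was lost without rTg4510 replicate 4 of 2 months, replicate 1 of 8 months or replicate 3 of 8 months (FDR = 0.08, 0.0782 and 0.0795). The step from 2 to 4 months, 0.74 ± 0.268 (SE), missed the threshold with an FDR of 0.0686, and was called without WT replicate 4 of 2 months or WT replicate 3 of 6 months (FDR = 0.0388 and 0.0486). The rTg4510 libraries of 4, 6 and 8 months overlapped one another in range (6.12 to 6.68, 6.51 to 6.80 and 6.29 to 6.61). Of all genes 6.39%, 13.4% and 10.5% were called for these contrasts of 4, 6 and 8 months with 2 months in rTg4510, and Socs2 was the only member among them.

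Whether the genotype difference itself changed with age was tested by the interaction. For Socs2 it was 1.05 ± 0.350 (SE) larger at 6 than at 2 months, with an FDR of 0.0531, and 0.87 ± 0.378 larger at 4 than at 2 months, with an FDR of 0.195, so neither passed. The interaction at 6 months was called with moderated variances (FDR = 0.0377), and without WT replicate 4 of 2 months (1.28, FDR = 0.011). None of the 9 members was called in any of the 5 interaction contrasts examined, where 4.66%, 8.89%, 6.7%, 0.156% and 0% of all genes were called (4 against 2, 6 against 2, 8 against 2, 6 against 4 and 8 against 6 months). The genes whose log2 signal followed Socs2 most closely over the 28 libraries were Chst2 (Pearson r = 0.936), Adssl1 (r = 0.932) and Rai14 (r = 0.930). These correlations run over libraries that share genotype and age, and are given as a description.

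Socs2, on chromosome 10 (chr10:95383903-95417321), has a processed pseudogene, Gm9847, on chromosome 12 that is also a row of the table. The annotated Gm9847 transcript is the same as the Socs2 coding sequence at 591 of 594 bases (99.5%), and the longest identical run is 261 bases. With 100-base reads, 8.41% of the 100-base stretches of the Socs2 transcripts are found unchanged in Gm9847. The differences are the substitutions G102A, C254T and T333C, where the Socs2 base comes first and positions are counted from 1 at the start codon. The stretch around the last pair of them is printed for the Socs2 coding sequence on the minus strand of GRCm38 (chr10:95412907-95413006) and for Gm9847 on the plus strand (chr12:14494804-14494903), with the differing bases in capitals.
Socs2: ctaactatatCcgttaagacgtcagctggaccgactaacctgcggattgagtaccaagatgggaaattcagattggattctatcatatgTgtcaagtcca
Gm9847: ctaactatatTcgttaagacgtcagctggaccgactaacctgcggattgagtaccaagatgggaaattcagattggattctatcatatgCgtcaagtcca

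Gm9847 had mean log2 signals of 3.37, 4.00, 3.66 and 3.90 in WT and 4.50, 5.71, 5.77 and 5.59 in rTg4510 at 2, 4, 6 and 8 months. Its difference between the genotypes was 1.13 ± 0.381 (SE) at 2 months, which was not called (FDR = 0.0972), and 1.71 ± 0.440, 2.11 ± 0.381 and 1.69 ± 0.440 at 4, 6 and 8 months, which were (FDR = 0.00648, 0.000163 and 0.00625). Within groups, the deviations of Socs2 and Gm9847 from their group means correlated with r = 0.29 over the 28 libraries. How the authors' counting assigned reads that match both genes is not stated, so the split of the signal between Socs2 and Gm9847 is uncertain, while both rows differ in the same direction. Gm9847 was named after its values had been seen.

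**Figure D2:**
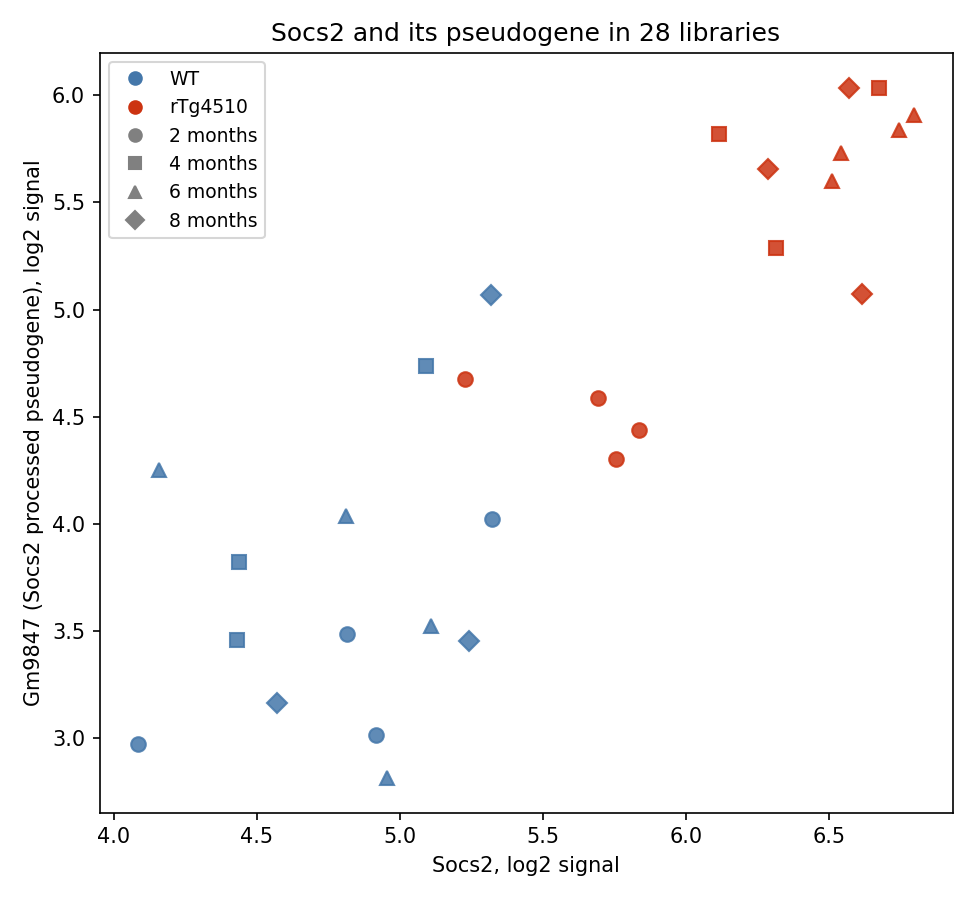
Log2 signal of Socs2 (horizontal axis) against that of its processed pseudogene Gm9847 (vertical axis) in the 28 kept libraries, with color for genotype and shape for age in months. The rTg4510 libraries of 4, 6 and 8 months lie at the upper right, with Socs2 at 6.12 or above and Gm9847 at 5.07 or above.

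The 5 STAT genes did not pass the thresholds at any age. STAT2 is the partner in the interferon-induced complex that binds interferon-stimulated response elements, STAT3 serves the gp130 and interleukin-10 families, STAT5A and STAT5B serve growth hormone, prolactin and the common beta and gamma chain cytokines, and STAT6 serves interleukin-4 and interleukin-13. The group means spanned 5.24 to 5.54 for Stat2, 6.43 to 6.69 for Stat3, 4.40 to 4.72 for Stat5a, 5.52 to 5.79 for Stat5b and 6.77 to 6.96 for Stat6, on the log2 scale. Each of these ranges is narrower than the difference of Socs2 at any age. The SD within groups was 0.126 for Stat2, 0.0851 for Stat3, 0.173 for Stat5a, 0.126 for Stat5b and 0.0894 for Stat6, against a median of 0.232 over all genes.

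That spread allowed bounds to be set. At all 4 ages the 95% confidence interval of the genotype difference stayed inside 1.5 fold for all 5 STAT genes, as it did for 27.2% of all genes. The widest bound reached 1.40 fold for Stat2 at 8 months, 1.33 fold for Stat3 at 8 months, 1.42 fold for Stat5a at 6 months, 1.25 fold for Stat5b at 2 months and 1.27 fold for Stat6 at 4 months. The bound moved past 1.5 fold for Stat5a at 4 months with the libraries of that age only (1.79 fold), with all 32 libraries (1.67 fold) and without rTg4510 replicate 4 (1.52 fold). It did so as well for Stat5a at 6 months with all 32 libraries (1.52 fold) and for Stat2 at 8 months with the libraries of that age only (1.56 fold). These are intervals of each gene by itself, for transcript levels and not for phosphorylated protein.

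**Figure D3:**
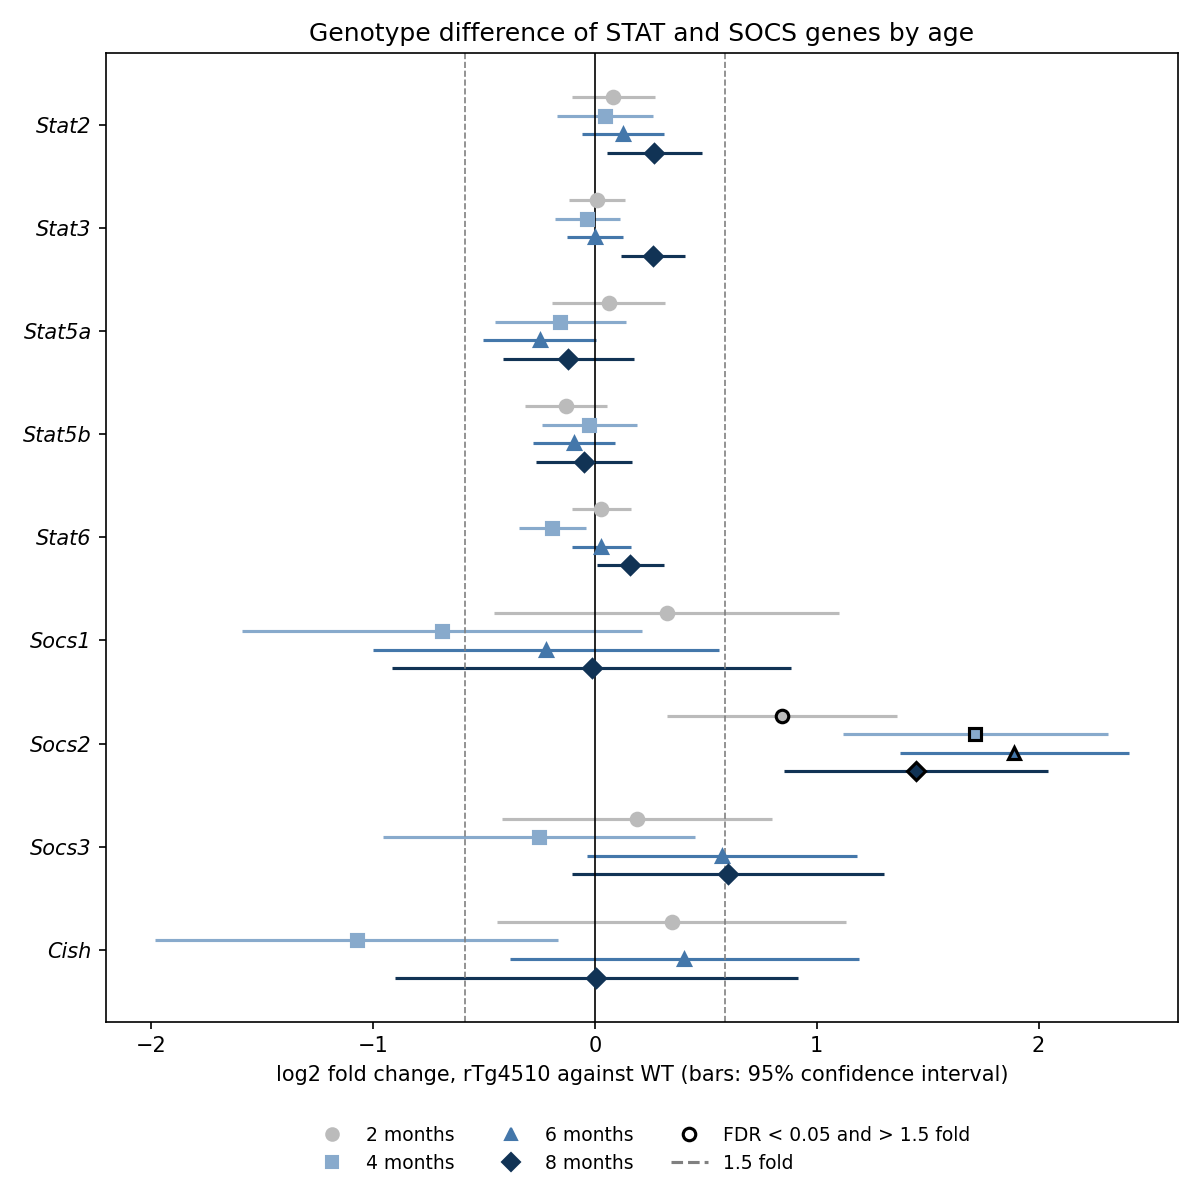
Log2 fold change of rTg4510 against WT (horizontal axis) for each gene at 2, 4, 6 and 8 months, with 95% confidence intervals as bars, black outlines for called differences and dashed lines at 1.5 fold. Intervals of the 5 STAT genes stay between the dashed lines, the 4 Socs2 points are outlined, and the intervals of Socs1, Socs3 and Cish reach beyond the lines at every age.

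The largest STAT differences were at 8 months. Stat3 read 6.45, 6.40 and 6.45 in WT and 6.83, 6.73 and 6.53 in rTg4510, so that every rTg4510 library was above every WT library. The difference of 0.26 ± 0.0695 (SE) had an FDR of 0.00715 and a size of 1.20 fold, under the fold threshold. With the libraries of 8 months only the FDR was 0.161, and with a library left out it reached 0.0576. Stat2 at 8 months read 5.35, 5.20 and 5.26 in WT and 5.38, 5.44 and 5.79 in rTg4510, again without overlap, and its difference of 0.27 ± 0.103 had an FDR of 0.0631. Groups that did not overlap were found for 36.7% of all genes at 8 months, and for 4 of the 9 members (Stat2, Stat3, Socs2 and Socs3, all higher in rTg4510).

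Stat6 was lower in every rTg4510 library than in every WT library at 4 months, at 6.89, 6.63 and 6.79 against 7.08, 6.90 and 6.91. The difference of -0.19 ± 0.0730 (SE) had an FDR of 0.0638, and groups of 36.6% of all genes did not overlap at that age. Stat6 shares 70 bases of its locus with the neighboring gene Nab2, which was called higher in rTg4510 at all 4 ages (0.81, 1.46, 1.33 and 1.40 on the log2 scale) and was named after its values had been seen. By the RefSeq annotation Stat6 also overlaps the noncoding Gm30989 by 4773 bases, Stat3 the noncoding Gm46295 by 1257 bases, Stat2 the gene Apof by 753 bases and Socs2 the noncoding Gm33230 by 502 bases, and none of these 4 is a row of the table. Reads from unstranded libraries in shared bases cannot be told apart. Stat5a at 6 months read 4.77, 4.64, 4.90 and 4.59 in WT and 4.54, 4.57, 4.50 and 4.28 in rTg4510, a difference of -0.25 ± 0.123 (SE) with an FDR of 0.125, and groups of 32.8% of all genes did not overlap at that age. Stat5b, Stat5a and Stat3 lie next to each other on chromosome 11, with 346 bases between Stat5b and Stat5a and 1636 bases between Stat5a and Stat3. Stat5a and Stat5b are close copies that share an identical run of 324 bases, and 6.31% and 4.87% of their 100-base stretches are found in the other, so values of this pair are not fully separate. Stat2, Stat3, Stat6, Socs1 and Socs3 share no 100-base stretch with another annotated transcript.

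Socs1, Socs3 and Cish were not called at any age in the main fit, and here the intervals were wide. SOCS1 is the main inhibitor of interferon receptor signaling, SOCS3 blocks receptors of the gp130 family, and CISH was first known as an early target of erythropoietin and STAT5. Their SD within groups was 0.528, 0.413 and 0.534, and the 95% intervals reached 3.01, 2.46 and 3.96 fold. Of these 3 genes and Socs2, the groups accounted for 25.5%, 33.2% and 36.7% of the variance over libraries in Socs1, Socs3 and Cish and for 87.7% in Socs2. Socs1 and Cish are also weakly expressed, with mean signals at percentiles 19.8 and 15.1 of the table, and 1 of 28 libraries was within 3 counts of its lowest value for Cish, on a count scale inferred from the steps between the lowest values.

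Cish at 4 months had the largest difference among the uncalled members. The WT libraries read 4.48, 4.85 and 4.64 and the rTg4510 libraries 3.15, 2.92 and 4.67. A single rTg4510 library was as high as WT, and the difference of -1.08 ± 0.436 (SE) had an FDR of 0.0845. It was called without that library, replicate 4 (-1.62, FDR = 0.00788), with all 32 libraries (-1.21, FDR = 0.0245) and with the replicate block (FDR = 0.0474). The fit with all 32 readmits libraries that failed quality control, among them rTg4510 replicate 3 of 4 months at 2.75. The difference was not called with the libraries of 4 months only (FDR = 0.31) or with quantile normalization (-0.98, FDR = 0.101). With a library left out it lay between -1.62 and -0.75, with FDRs up to 0.308. At 2, 6 and 8 months the difference was 0.35, 0.40 and 0.01, and the value at 8 months was -0.32 with all 32 libraries and -0.039 with library weights, so its sign depends on the setting. The interaction of 6 against 4 months was 1.48 ± 0.577 with an FDR of 0.47, and was not called. That of 4 against 2 months was called without rTg4510 replicate 4 of 4 months (-1.97, FDR = 0.0318), and had an FDR of 0.157 with it. For Cish 7.83% of the 100-base stretches also belong to 2 overlapping GENCODE transcripts, Gm17040 and Gm17041.

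Socs3 at 8 months read 8.91, 9.03 and 8.46 in WT and 9.22, 9.71 and 9.26 in rTg4510, so that the groups did not overlap. The difference of 0.60 ± 0.337 (SE) had an FDR of 0.217, but with the replicate number as a block it was called (SE 0.173, FDR = 0.0282), at a fold just past 1.5. With quantile normalization it was 0.40 (FDR = 0.41), and with a library left out 0.43 to 0.71. At 6 months the libraries read 8.32, 8.43, 9.42 and 9.68 in WT and 9.05, 9.36, 9.93 and 9.80 in rTg4510. Both genotypes had a low pair and a high pair of libraries with the same replicate numbers. The difference at 6 months was 0.57 ± 0.292 (SE, FDR = 0.142), and with the block the FDR was 0.0143 while the size of 1.49 fold stayed under the threshold. Without WT replicate 4 it was called (0.81, FDR = 0.0392), and with quantile normalization it was 0.37 (FDR = 0.355).

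The spread of Socs3 between libraries of a group followed that of immediate early genes, which are transcribed within minutes of a stimulus. Of 11 immediate early and stress genes, 9 had deviations from their group means that correlated with those of Socs3 above 0.8 over the 28 libraries, against 1.03% of all genes. The closest was Btg2 (Pearson r = 0.93, Spearman rho = 0.93), followed by Fos (r = 0.92, rho = 0.91), Junb (r = 0.91, rho = 0.92) and Zfp36 (r = 0.91, rho = 0.93), and the lowest of the 9 was Ier2 (r = 0.84, rho = 0.82). Leaving out the 2 libraries farthest from the median left r between 0.81 and 0.92 for these 9 genes. The heat shock genes Hspa1a and Hspa1b did not follow Socs3 (r = 0.20 and -0.01). For the other 8 members, none of the 11 genes correlated above 0.8. The relation was looked for after the values had been seen, the points share their libraries, and its part in the difference of Socs3 between genotypes was not tested.

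**Figure D4:**
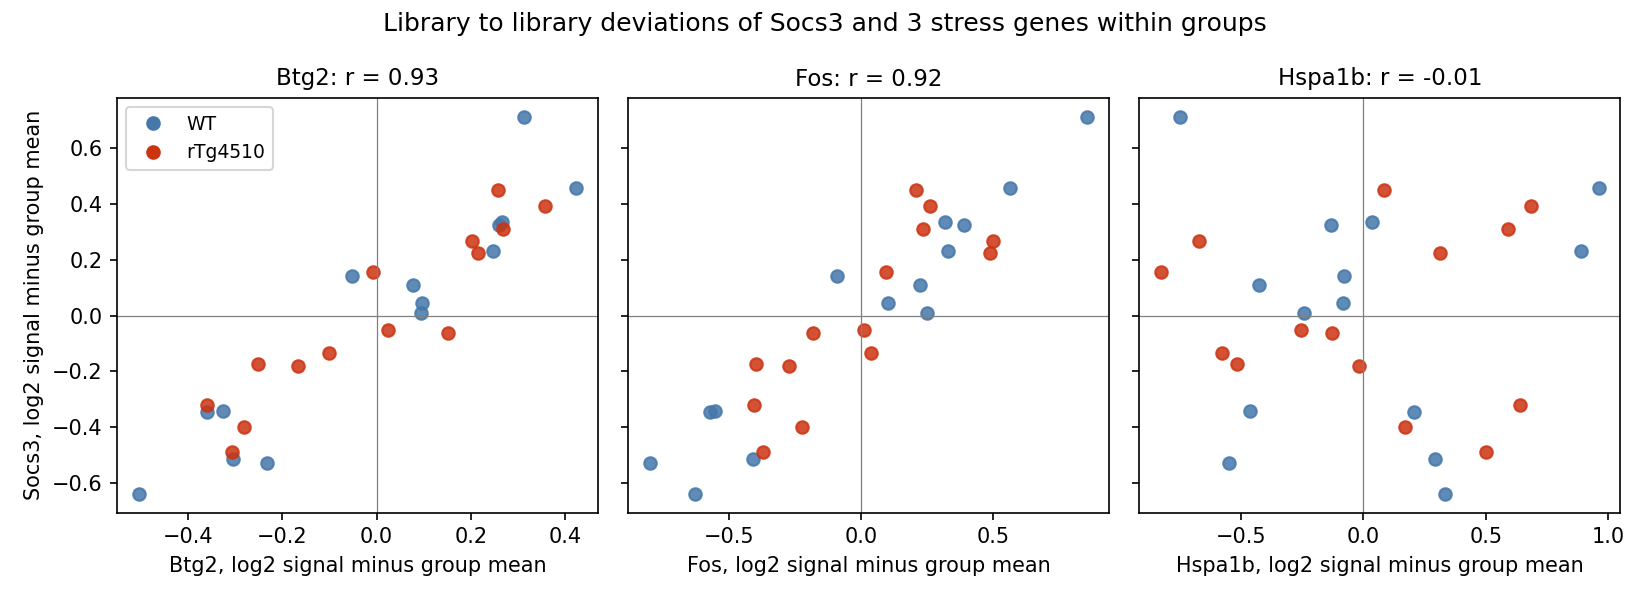
Deviation of Socs3 from its group mean (vertical axis, log2 signal) against that of Btg2, Fos and Hspa1b (horizontal axes, log2 signal) in the 28 kept libraries, WT in blue and rTg4510 in red. Points of both genotypes lie along a rising line for Btg2 (r = 0.93) and Fos (r = 0.92) and scatter for Hspa1b (r = -0.01).

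STAT dimers bind the palindrome TTCNNNGAA, STAT6 also TTCNNNNGAA with an extra base in the middle, and the STAT2 complex binds repeats of the kind TTTCNNTTTC. These letters were searched on both strands in the RefSeq windows from 250 bases before to 50 bases after each annotated start (GRCm38.p6), where 8.3%, 6.95% and 3.44% of 32851 windows hold them. Of the 9 members 8 have a window in the table, and Socs2 was not searched. The windows of Cish and Socs3 are shown because these feedback genes hold TTCNNNGAA there. Cish, on the plus strand, has a pair of matches within its first 20 transcribed bases (chr9:107296655-107296684), and Socs3, on the minus strand, has 1 match from position -154 to -146, counted from an annotated start 970 bases inside the outer end of its locus (chr11:117969487-117969546). Capitals mark the matches.
Cish: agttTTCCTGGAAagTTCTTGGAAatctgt
Socs3: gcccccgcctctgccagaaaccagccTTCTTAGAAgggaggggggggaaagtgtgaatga
Socs1 holds 2 overlapping matches to TTTCNNTTTC on the opposite strand, and Stat2 holds 1 match each to TTCNNNNGAA and TTTCNNTTTC. The windows of Stat3, Stat5a, Stat5b and Stat6 hold none of these letters. Those of Stat5b are counted from starts 8423 and 36434 bases inside the outer end of its locus, and those of Stat5a from starts 305 and 1133 bases inside. The outer ends of these 2 loci, and that of the Socs3 locus, were thus not searched. A match is a description of the sequence only.

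The 4 JAK kinases, which sit on the receptor chains and phosphorylate the STATs, were called at no age. Jak1 differed by 0.03, -0.04, -0.01 and 0.02 on the log2 scale at 2, 4, 6 and 8 months, and Tyk2 by 0.17, 0.03, -0.04 and 0.03. Jak2 was higher by 0.19 ± 0.0557 (SE) at 6 months with an FDR of 0.00961, under the fold threshold, and Jak3 differed by -0.27 there (FDR = 0.053). Negative regulators other than the members were counted next. None of 4 PIAS genes and none of 5 phosphatases (tyrosine phosphatases that act on JAKs, STATs or receptors) were called. Of 4 other SOCS genes 1 rose at 4, 6 and 8 months and 1 fell at 4 months. The phosphatases had medians of -0.03, 0.19, 0.29 and 0.20 at the 4 ages, against 0.01, -0.04, -0.035 and -0.01 over all genes. Single phosphatases ranged from -0.05 to 0.52, -0.09 to 0.56 and -0.21 to 0.47 at 4, 6 and 8 months. Of these 3 lists, 2, 1 and 1 genes were thus called at 4, 6 and 8 months, where 13.8%, 19.8% and 15.9% of all genes were. Socs5 fell by 0.59 at 4 months (FDR = 0.0148), with values of -0.10, 0.01 and -0.02 at 2, 6 and 8 months.

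The receptor chains were counted by family. Among 14 measured chains of the common gamma and beta families, 0, 3, 3 and 6 were higher and 0, 1, 1 and 1 lower in rTg4510 at 2, 4, 6 and 8 months, where 1.58%, 9.47%, 11.3% and 10.5% of all genes were higher and 0.403%, 4.33%, 8.54% and 5.37% lower. Il2rg, the common gamma chain itself, was 1.90 ± 0.186 (SE) higher at 4 months, 1.90 ± 0.161 at 6 months and 1.85 ± 0.186 at 8 months (FDR = 1.16e-07, 6.24e-09 and 1.16e-07). Crlf2, the receptor for thymic stromal lymphopoietin, was higher by 1.42, 1.26 and 1.26 at these ages, and Csf2ra, the binding chain for GM-CSF, by 1.10, 1.21 and 1.26. Il7r, the partner of Il2rg in the interleukin-7 receptor, was lower, at -0.66, -1.51 and -1.53. The list's median log2 fold change was 0.16, 0.26, 0.41 and 0.29 at the 4 ages, against 0.01, -0.04, -0.035 and -0.01 over all genes.

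Of 10 measured receptor chains of the gp130 and interleukin-10 families only Il27ra was called, and it was up, at ages when 9.47% to 11.3% of all genes were up. The interleukin-27 receptor differed by 0.25 at 2 months (FDR = 0.77) and then by 3.13 ± 0.332 (SE), 2.55 ± 0.288 and 1.62 ± 0.332 at 4, 6 and 8 months (FDR = 3.24e-07, 3.96e-07 and 0.000804). Of 5 interferon receptor chains, Ifngr1 was lower at 4 months (-0.63) and 8 months (-0.62), with -0.51 at 6 months under the fold threshold, and Ifnar1 was higher at 8 months (0.63, FDR = 5.36e-06). The receptors for growth hormone, prolactin and erythropoietin, through which SOCS2 and CISH are best known, were called at no age (3 of 3 measured). The medians were -0.02, -0.02, -0.19 and -0.04 for the gp130 and interleukin-10 families and 0.00, 0.28, 0.27 and 0.40 for the interferon receptors at the 4 ages. For the 3 hormone receptors they were -0.26, -0.71, -0.76 and -0.235, and the single genes ranged from -1.36 to 0.315 at 6 months.

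Of 29 cytokines listed as ligands of these receptors 12 were in the table. Il12b, the p40 subunit of interleukin-12 and interleukin-23, was higher by 1.66 ± 0.391 (SE), 1.82 ± 0.338 and 3.15 ± 0.391 at 4, 6 and 8 months (FDR = 0.00312, 0.00023 and 2.12e-06). Osm, oncostatin M of the interleukin-6 family, was higher by 0.75, 1.71 and 1.43 at these ages. Il6 rose only at 4 months by the thresholds (0.82, FDR = 0.0371), and its values at the other ages were 0.57, 0.23 and 0.02. Il27 fell at 4 months (-0.92, FDR = 0.0292), and Tslp fell at 4 and 6 months (-0.88 and -0.78). The median of the 12 cytokines was 0.11, -0.26, -0.17 and -0.05 at the 4 ages.

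Genes that are known targets of each STAT were counted next. Many of them answer to other factors as well, and the lists were chosen with earlier results known. Of 15 targets of interferon and the STAT2 complex, 0, 5, 9 and 8 were up at 2, 4, 6 and 8 months and 0 were down at any age, where 1.58%, 9.47%, 11.3% and 10.5% of all genes were up. Cxcl10, a chemokine, differed by 2.35 ± 0.462 (SE), 1.42 ± 0.400 and 1.92 ± 0.462 at 4, 6 and 8 months. Ifi44 was called at these 3 ages and differed by 1.13 at 4 months, Oas1a was called at 6 and 8 months and differed by 0.72 at 6 months, and Irf7, a master factor of the interferon response, at 8 months (1.02). The list's median was 0.30, 0.54, 0.60 and 0.76.

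Of 7 targets of STAT5, 0, 4, 3 and 5 were up and 0 down at the 4 ages, with medians of 0.18, 0.65, 0.64 and 1.01. Of all genes 1.58%, 9.47%, 11.3% and 10.5% were up and 0.403%, 4.33%, 8.54% and 5.37% down. Igf1, which growth hormone induces through STAT5 in liver, differed by -0.10 at 2 months and by 2.37 ± 0.253 (SE), 2.28 ± 0.219 and 2.37 ± 0.253 at 4, 6 and 8 months (FDR = 3.39e-07, 3.85e-08 and 2.67e-07). Bcl6, a repressor, was higher by 0.87, 0.91 and 1.11 at these ages. The survival gene Bcl2l1 was called at 4 and 8 months (0.65 and 0.87), and the kinase gene Pim1 at 8 months (1.01, FDR = 0.0374). Osm, also on this list, is described above.

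Of 14 measured targets of STAT3, 0, 4, 5 and 8 were up and 0, 2, 2 and 2 down, where 1.58%, 9.47%, 11.3% and 10.5% of all genes were up and 0.403%, 4.33%, 8.54% and 5.37% down, with medians of 0.15, 0.36, 0.59 and 0.70. Il1rn, the interleukin-1 receptor antagonist, differed by 2.59 ± 0.380 (SE), 3.01 ± 0.329 and 2.35 ± 0.380 at 4, 6 and 8 months. Hif1a, the oxygen-regulated factor, differed by 1.42, 1.57 and 1.49, and Bcl3 by 0.72, 1.41 and 1.77. Ccnd1, the gene of cyclin D1, fell by 1.07, 1.33 and 1.04 at these ages.

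The 16 targets of STAT6, mostly genes of macrophages treated with interleukin-4, moved in both directions. At the 4 ages 1, 2, 2 and 2 were up and 1, 6, 5 and 2 down, and the median was -0.14, -0.71, -0.47 and -0.18. Of all genes 1.58%, 9.47%, 11.3% and 10.5% were up and 0.403%, 4.33%, 8.54% and 5.37% down. The chemokine Ccl22 differed by 1.31, 1.68 and 1.64 at 4, 6 and 8 months, and Egr2 by 1.14 already at 2 months (FDR = 0.000255), then by 1.48, 1.02 and 0.90. Retnla, a secreted product of such macrophages, fell at 4 and 6 months (-1.57 and -1.39), and the chemokine Ccl17 fell at 2 months (-1.46, FDR = 0.0446) with values of -1.22, -0.45 and -0.19 later. Border macrophage markers, which overlap with this list in Mrc1, had 0 of 6 called at 2, 4 and 8 months and 1 of 6 lower at 6 months, but all 6 differed below 0 at every age, with medians of -0.26, -0.52, -0.34 and -0.25. At 4 months their summed log2 signal was 10.1 to 10.3 in rTg4510 and 10.4 to 11.2 in WT, without overlap. Their part in the values of the STAT6 targets was not tested.

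**Figure D5:**
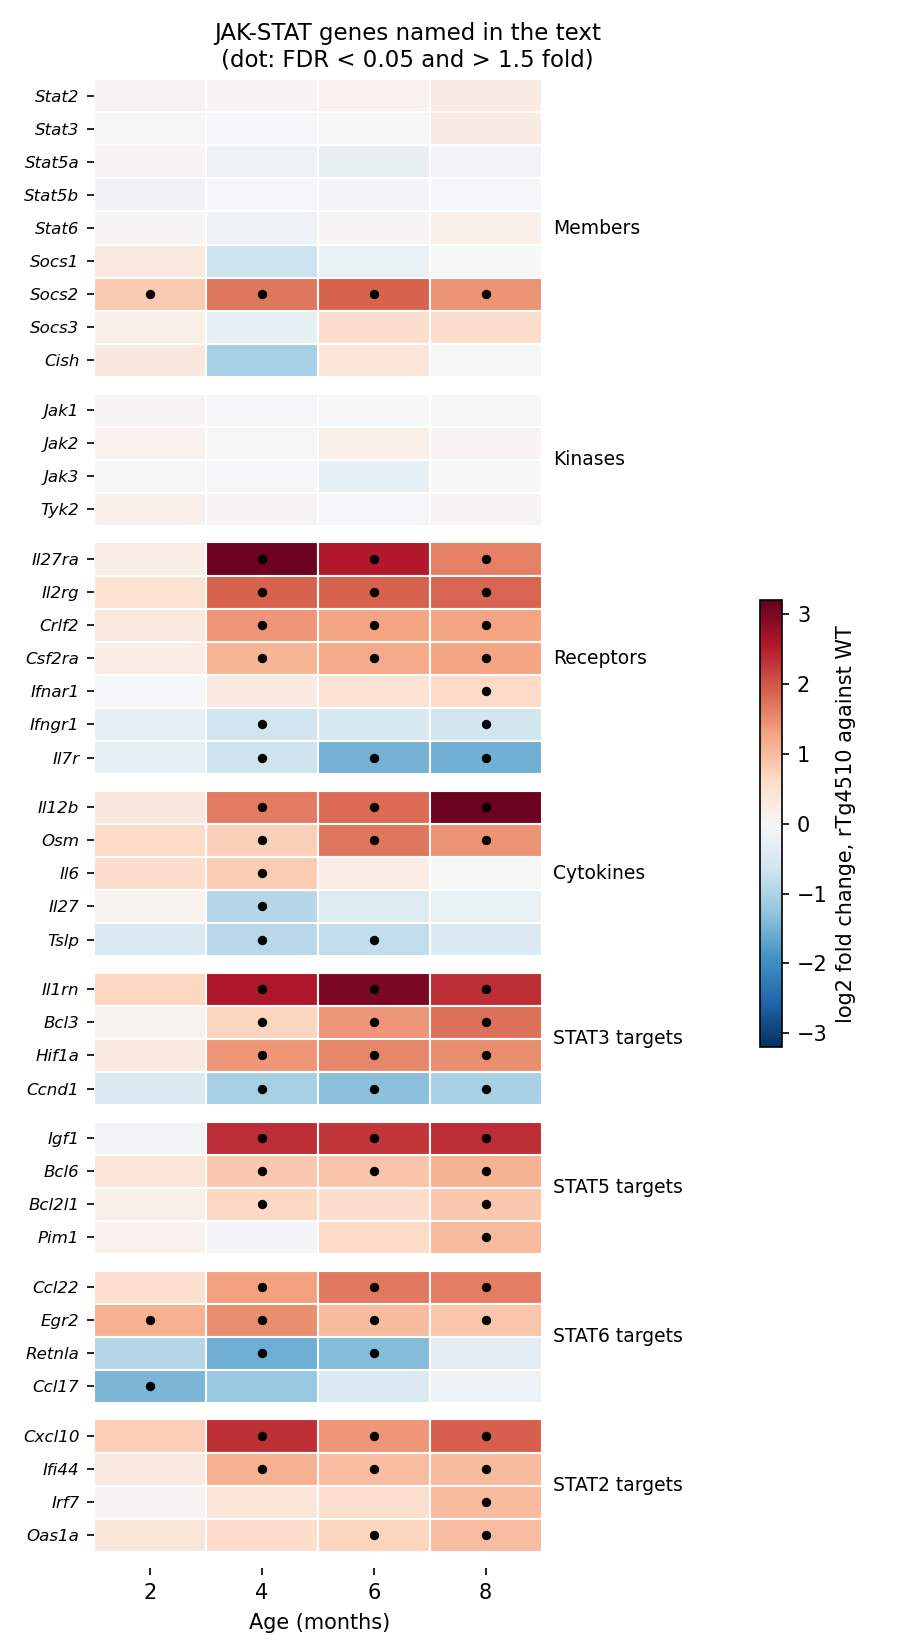
Log2 fold change of rTg4510 against WT by age in months (columns) for the members and the named genes of the pathway (rows, grouped by role), from blue (lower) to red (higher), with a dot where a difference passed an FDR of 0.05 and 1.5 fold. Kinases and STAT genes are pale throughout, while Il27ra (3.13 at 4 months), Il12b (3.15 at 8 months) and Il1rn (3.01 at 6 months) carry the deepest red.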

How the data were processed

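Microglia had been isolated from pooled mouse forebrains with CD11b MicroBeads, and total RNA was sequenced as paired-end 100-bp reads from cDNA made with the Ovation V2 kit, which does not mark the strand. The deposited table holds log2 gene signals: the authors pooled sequencing runs per exon, dropped exons with little coverage, reduced the remaining exons to 1 value per gene by robust linear fitting, and brought all libraries to a common median. The aligner, the annotation and the treatment of reads that match several genes are not given in the sources used here. The submitters' processing notes name GRCm38. The table has 18588 genes and 32 libraries, and 0 columns were left unused. The median of the library checked, rTg4510 replicate 1 of 2 months, is 5.63. The Methods give 1 nominal depth for all libraries, but read totals per library are not given in the sources used here, so no counting interval was computed.

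Groups came from the labels (genotype and age). The 28 libraries that passed the authors' quality control were fitted per gene with limma 3.58.1 in R 4.3.3 (8 group means, unmoderated variances, 20 residual degrees of freedom), followed by contrasts of genotype, of age and of their interaction. The Methods give the same linear model and thresholds. A gene was called when its Benjamini-Hochberg FDR over all genes of a contrast was under 0.05 and its change exceeded 1.5 fold. FDR values in the text are from this limma model unless another fit is named. Simulated data for the same 18588 genes were used to test it. Of 2-fold changes it recovered 65%, 61%, 63% and 59% at 2, 4, 6 and 8 months, and of 4-fold changes 85%, 82%, 89% and 84%. There were 0 wrong signs, and 3, 5, 1 and 4 unchanged genes were called. In each simulated comparison 100 genes were changed by each fold, with noise independent between genes. That is a smaller share of changed genes than was called in the measured data. The percentages hold for that setting and are not the power of the measured comparisons. Alternatives were moderated variances, the libraries of that age only, all 32 libraries, quantile normalization, a low-signal filter (mean signal above the 25th percentile), a replicate block, library weights and each library left out in turn.

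The members and all gene lists were chosen with earlier results of these data known. Named besides the 9 members are the JAK kinases and, from each list, the called genes, or the 4 with the largest change where more than 5 were called, except for 1 gene of the other SOCS genes that is counted and not reported by name here. Gene names and loci are from RefSeq GRCm38.p6, which matched 95.9% of the Entrez numbers, and transcript sequences are from GENCODE for GRCm38. Sequences were handled with Python 3.11.15.

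Both genotypes carry the same replicate numbers, and the sources do not say what a number marks. For each pair sharing a number, deviations from the group mean were correlated over all genes, giving r between 0.131 and 0.153 at 6 months and between 0.150 and 0.291 at 8 months. The numbers were taken to pair the libraries of these ages, from the values alone. At these ages every r of a shared number was above every r of different numbers, which did not hold at 2 and 4 months. The main fit, with 8 group means only, does not use this pairing. Its SEs and FDRs at 6 and 8 months are therefore unpaired, and the paired values are those given with the block. At 2 months r was 0.0649 to 0.167, and at 4 months -0.0999 to 0.124, so no pairing was taken there. Pairs with different numbers gave r of -0.194 to 0.0816, -0.0709 to 0.154, -0.127 to 0.0913 and -0.259 to -0.0281 at 2, 4, 6 and 8 months. The alternative fit with the replicate block did pair libraries by number at all 4 ages. Its results at 2 and 4 months therefore rest on a pairing that was not taken here. p-values measure the spread between libraries of pooled animals.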

Additional observations from a re-analysis of the deposited data

Results flagged for a closer look

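No library stood apart from the others of its group for any of the 9 genes in the 36 sets of 4 libraries that were examined, and no interaction was called for any of them.

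The 4 libraries excluded by the authors entered only the alternative fits with all 32 libraries. Of their rTg4510 values 5 lay above and 5 below every WT library of all ages, kept or excluded. Socs2 read 6.23 in rTg4510 replicate 3 at 4 months and 6.66 in replicate 4 at 8 months, above the WT range of 4.09 to 5.68. Socs1 read 6.89 in replicate 3 at 4 months, above the WT range of 3.33 to 5.81, while the kept rTg4510 libraries of that age read 4.61, 4.01 and 4.11. In replicate 4 at 8 months Stat3 read 7.02 (WT range 6.40 to 6.75) and Socs3 read 10.15 (WT range 8.32 to 9.72). Below the WT libraries, in replicate 3 at 4 months, Stat2 read 4.74 (lowest WT 5.09), Stat5a 3.88 (4.42), Stat5b 5.27 (5.44), Stat6 6.47 (6.61) and Cish 2.75 (3.23). These libraries had failed the authors' quality control. The share of all genes outside the WT range in them was not counted. Whether such values are particular to the members was therefore not tested.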

How the results depend on the processing

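Socs2 remained called at 4, 6 and 8 months under every alternative and in every fit with a library left out. At 2 months the count of called members was 0 instead of 1 with the libraries of 2 months only, with all 32 libraries and with the replicate block, where Socs2 had FDRs of 0.242, 0.0859 and 0.0509, and 0 to 1 with a library left out. At 4 months the count was 2 with all 32 libraries and with the block, which added Cish (FDR = 0.0245 and 0.0474), and 1 to 2 with a library left out. At 6 months it was 1 to 2 with a library left out, and at 8 months it was 2 with the block, which added Socs3. The block changed no other call of a member. The interaction of Socs2 at 6 against 2 months was called with moderated variances, quantile normalization and the low-signal filter (FDR = 0.0377, 0.0498 and 0.0444), which made the count of called interactions 1 instead of 0. With a library left out that count was 0 to 1: Socs2 was called without WT replicate 4 at 2 months, 2 at 4 months, 4 at 6 months or 3 at 8 months (FDR 0.011 to 0.0457), and Cish at 4 against 2 months without rTg4510 replicate 4 at 4 months (-1.97, FDR = 0.0318). Calls of Socs2 with age in rTg4510 numbered 2, and 1 to 3 with a library left out. The call at 8 against 2 months was lost without rTg4510 replicate 4 at 2 months or replicates 1 or 3 at 8 months (FDR 0.0782 to 0.08), and one at 4 against 2 months was gained without WT replicate 4 at 2 months or 3 at 6 months (FDR 0.0388 and 0.0486). No member was called with age in WT in any fit.

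Uncalled differences near 0 changed sign under some alternatives. With all 32 libraries the log2 fold change was -0.19 for Stat2 at 4 months, and at 8 months 0.062 for Socs1 and -0.32 for Cish. With quantile normalization it was -0.0076 and -0.016 for Stat3 at 2 and 6 months, -0.016 for Stat6 at 6 months and 0.065 for Socs1 at 8 months, and with library weights -0.039 for Cish at 8 months. With a library left out, the range was -0.039 to 0.096 for Stat2 at 4 months, -0.028 to 0.036, -0.086 to 0.020 and -0.031 to 0.032 for Stat3 at 2, 4 and 6 months, -0.30 to 0.032 for Stat5a at 4 months, -0.13 to 0.040 and -0.11 to 0.029 for Stat5b at 4 and 8 months, and -0.0067 to 0.063 and -0.00075 to 0.064 for Stat6 at 2 and 6 months. At 8 months it was -0.35 to 0.24 for Socs1 and -0.25 to 0.24 for Cish. The low-signal filter left out Socs1 and Cish. The cause of these changes was not tested. Read totals per library are not given in the sources used here, so how far depth limits weakly expressed genes such as Socs1 and Cish was not tested.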
